A study of Rattus norvegicus with 10 samples.

Results

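The Rab GTPases were followed in a brainstem region, the nucleus of the solitary tract (NTS), where sensory fibres from the heart, vessels and gut make their first synapse. The tissue came from spontaneously hypertensive rats (SHR) and normotensive Wistar-Kyoto rats (WKY). Members were all probe sets of the array whose 1 platform symbol is Rab followed by a number and, where present, a letter and a further digit, which leaves out Rab interactors. The rule found 97 of 31042 probe sets, belonging to 56 of 14217 genes. Of these, 78 probe sets of 50 genes were bright enough to be tested, and Rab3d, Rab17, Rab19, Rab37, Rab39a and Rab43 were not. All animals were males of 10 to 13 weeks, and strain is the one difference that the labels give, with no treatment named. SHR are inbred rats that become hypertensive, and WKY are the inbred rats most often set against them. There were 5 arrays for each strain. Each array is called an independent replicate in the design text, whereas the sample descriptions name 5 animals, so an array may stand for 1 animal or for a pool, and the p-values speak only of the variation among these arrays, which may be technical.

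Rab proteins are small GTPases that mark the membranes of the cell. Bound to GTP, a Rab recruits effectors that move, tether and fuse vesicles, and exchange factors switch it on while GTPase-activating proteins switch it off. In neurons they carry newly made membrane proteins to the surface, sort receptors through endosomes, and prepare synaptic vesicles for release. The members were read in 3 such groups, secretory, endosomal and synaptic, and a small remainder.

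Of the 78 tested Rab probe sets, 2 were lower in SHR (2.20% of all tested probe sets were) and 0 were higher (2.06% of all), and both lower ones belonged to Rab8b (limma, Benjamini-Hochberg adjusted p below 0.05 over all 18846 tested probe sets). Rab8b directs vesicles from the Golgi to the plasma membrane and is the close relative of Rab8a. The share of Rab probe sets past the threshold, 2.56%, was below the 4.26% of all tested probe sets, and 1 of 50 Rab genes had such a probe set, against 4.96% of all genes. At an unadjusted p below 0.05 there were 11 of 78 Rab probe sets (14.1%) against 21.0% of all. In size the Rab8b differences were uncommon: a difference of 1 log2 unit or more was found in 0.276% of all tested probe sets.

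**Figure D1:**
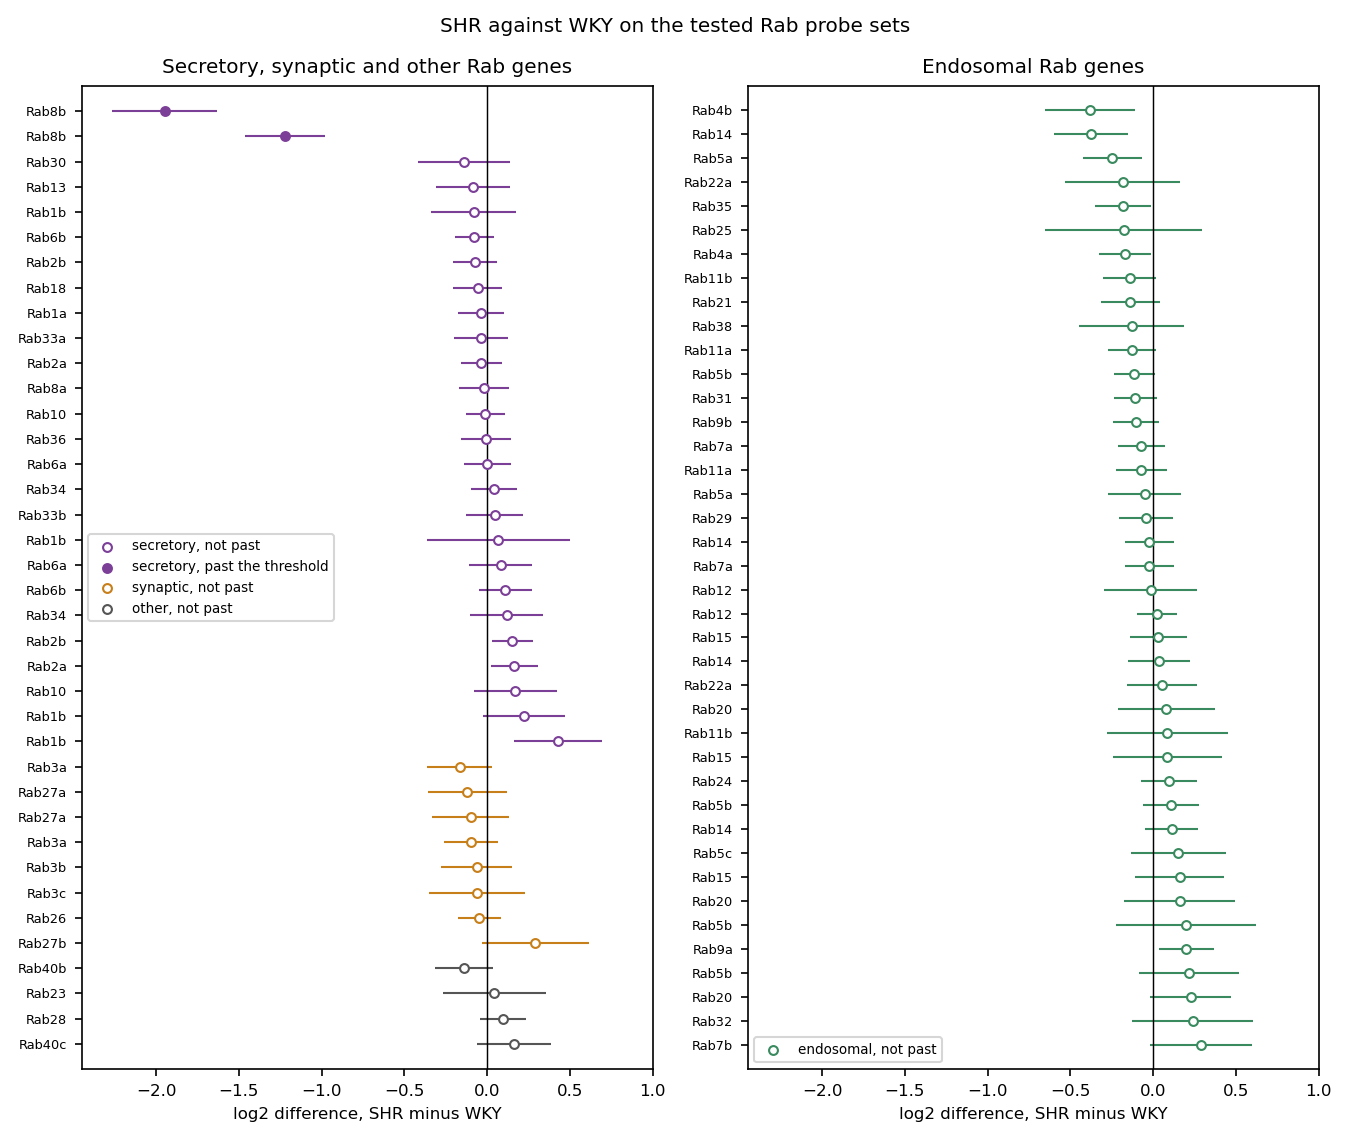
Log2 difference of SHR minus WKY (x axis) for each of the 78 tested Rab probe sets, 1 row each, with 95% confidence intervals from limma and n = 5 arrays a strain. Filled points passed the threshold. The Rab8b rows, at -1.95 and -1.22, lie apart from the other 76, which run from -0.38 to 0.43.

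The sequences before the start sites of Rab8b and Rab8a are shown because Rab8b was the Rab gene that differed and Rab8a is its nearest relative. Both are RefSeq windows of 250 bases before the annotated start, in build GRCr8 of the Brown Norway reference rat, on the minus strand and written 5′ to 3′. They are reference sequences and not those of SHR or WKY. Capitals mark a GC box (GGGCGG) or a CCAAT box (CCAAT) on either strand. Rab8b (Entrez Gene 266688) lies at chr8:76417549-76417798 and Rab8a (Entrez Gene 117103) at chr16:17709413-17709662.
Rab8b: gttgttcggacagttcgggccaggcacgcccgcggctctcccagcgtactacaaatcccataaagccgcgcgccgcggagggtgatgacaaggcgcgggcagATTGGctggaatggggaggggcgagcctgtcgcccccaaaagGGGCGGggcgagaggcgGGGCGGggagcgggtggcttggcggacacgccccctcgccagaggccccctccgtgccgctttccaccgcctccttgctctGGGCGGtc
Rab8a: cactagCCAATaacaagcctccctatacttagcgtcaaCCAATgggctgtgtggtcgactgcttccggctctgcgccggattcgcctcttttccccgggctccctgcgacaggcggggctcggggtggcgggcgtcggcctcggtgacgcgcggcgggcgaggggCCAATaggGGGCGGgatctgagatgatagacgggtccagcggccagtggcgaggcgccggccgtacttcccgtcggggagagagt
The Rab8b window held 3 GC boxes and 1 CCAAT box, and that of Rab8a held 1 and 3. GC content was 71.2% for Rab8b and 67.6% for Rab8a. Of the 56 Rab genes, 45 had a window in the table. A GC box stood in 77.8% of those 45, against 30.5% of the 33469 windows of all genes, non-coding ones included. Rab windows had a median GC content of 62.8% against 51.2% in all. The TATA box (TATAAA) was found in 0 of the 45 and in 12.9% of all windows, the CCAAT box in 33.3% and 34% and the core of the cyclic AMP response element (TGACG) in 33.3% and 18.2%. The palindromic E box (CACGTG) was in 6.67% of the Rab windows and 5.59% of all. All motifs were searched on both strands, and a match is a match of letters and not a site shown to be used.

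On the brighter Rab8b probe set the signals in SHR 1 to 5 were 39.7, 63.0, 48.4, 23.5 and 63.6. In WKY 1 to 5 they were 206, 251, 216, 223 and 217. Every SHR array was far below every WKY array, and the highest SHR value was under the lowest WKY value by a wide margin. The means were 47.7 ± 16.9 in SHR and 223 ± 16.9 in WKY (SD, n = 5), a log2 difference of -1.95 ± 0.15 (SE) with a 95% interval of -2.27 to -1.63 and an adjusted p of 2.91e-07. Here and below a signal is given as mean ± SD and a log2 difference as its value ± SE, with 5 arrays a strain. Differences are on the scale log2(signal + 16), which understates the change of low signals.

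A separate, dimmer Rab8b probe set showed the same direction. Its signals were 46.5, 54.8, 33.1, 33.9 and 33.5 in SHR 1 to 5 and 124, 119, 107, 112 and 109 in WKY 1 to 5, again without overlap. The log2 difference was -1.22 ± 0.11 (95% interval -1.46 to -0.98, adjusted p = 3.27e-06), or 2.33-fold lower in SHR, compared with 3.86-fold on the brighter one. The last Rab8b probe set was dim on every array, at 4.64 to 9.003 in SHR and 4.40 to 6.22 in WKY, and was not tested. Values of the strains overlapped there. Each of the tested probe sets reached the brightness filter on 4 SHR and 5 WKY arrays. Both passed with each of the 10 arrays left out in turn, with log2 differences of -2.04 to -1.79 and -1.31 to -1.18. Because signals in SHR were low, the size depends on the offset added before the logarithm. With 1 or 64 in its place the brighter probe set differed by -2.28 and -1.37 and the other by -1.51 and -0.78. In tissue RNA, fewer cells that express Rab8b and less Rab8b RNA per cell cannot be told apart. These need not be the only readings of a lower signal, and how well the probes match the RNA of each strain was not tested.

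Rab8a, which also serves post-Golgi transport and the primary cilium, had 1 probe set. Its signals were 211, 231, 238, 192.5 and 195 in SHR 1 to 5 and 213, 208, 220.5, 223 and 214 in WKY 1 to 5, so the WKY values lay inside the SHR range. The log2 difference was -0.018 ± 0.071 with a 95% interval of -0.17 to 0.13. To set both genes against each other, the log2 value of Rab8a was subtracted from that of Rab8b within each array, a comparison chosen after the values were seen. With the brighter Rab8b probe set this ratio was -1.89 ± 0.38 in SHR and 0.040 ± 0.12 in WKY (SD, n = 5), and with the other probe set -2.04 ± 0.23 and -0.83 ± 0.11. The strains did not overlap in either. Levels of different probe sets are not comparable, so only the difference between strains is read, and it is given as a description. No weight is put on a test of it, since Rab8b alone did not overlap and Rab8a differed by only -0.018.

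**Figure D2:**
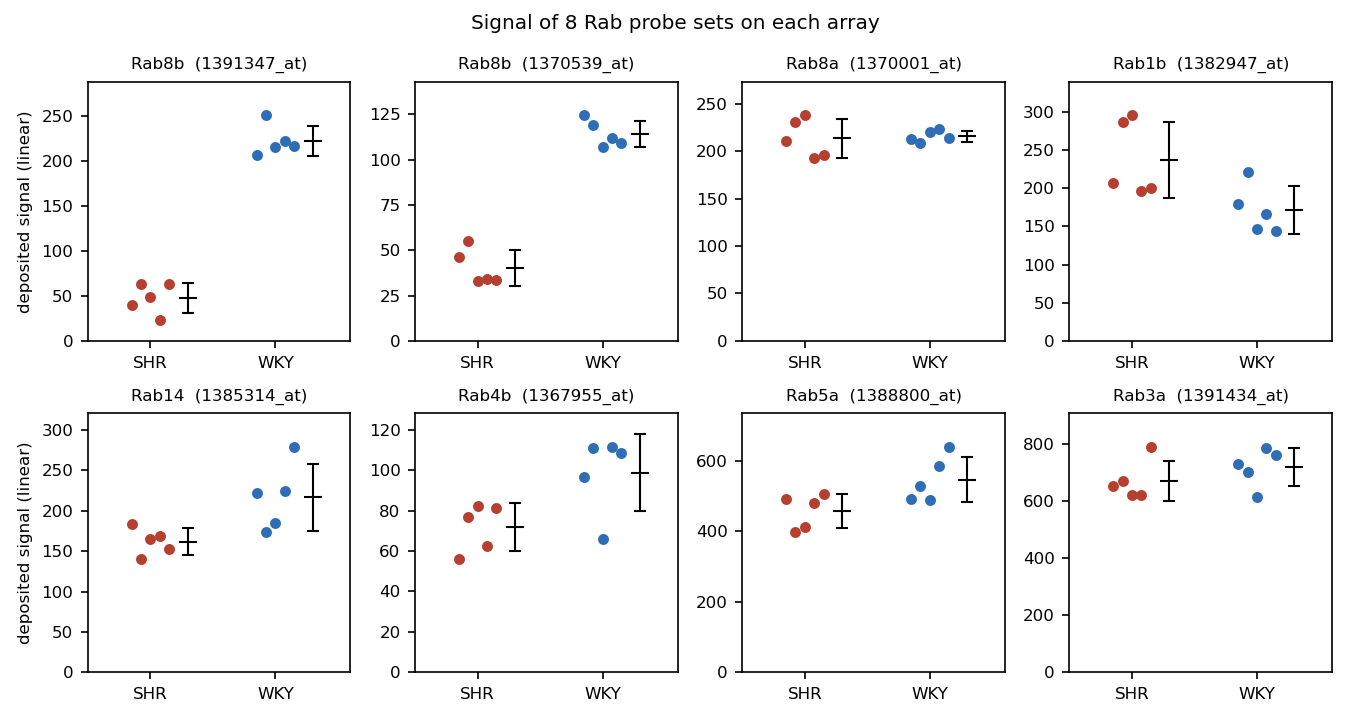
Deposited linear signal (y axis) of 8 Rab probe sets on the 5 SHR arrays (red) and 5 WKY arrays (blue), each in the order 1 to 5, with mean and SD at the right of each group. The Rab8b panels show groups that do not touch, Rab8a and Rab3a overlap throughout, and Rab1b, Rab14, Rab4b and Rab5a overlap in part.

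The secretory group had 19 genes on the array, of which 16 with 26 probe sets were tested. Rab1b, which together with Rab1a carries cargo from the endoplasmic reticulum to the Golgi, had the largest positive difference of any Rab probe set. On that probe set its signals were 207, 286, 295, 196.5 and 200.1 in SHR 1 to 5 and 179, 221, 146, 167 and 144 in WKY 1 to 5. All SHR values were above 4 of the WKY values, but WKY 2 lay among them. The log2 difference of 0.43 ± 0.13 did not pass (adjusted p = 0.0631). It passed without SHR 5 (adjusted p = 0.0452) and without WKY 2 (0.0253), where it was 0.48 and 0.52. The 2 highest signals were those of SHR 2 and SHR 3, which also had the highest median signals of all arrays, 49.35 and 49.8. Without both, the difference was 0.23 (adjusted p = 0.326). The other tested Rab1b probe sets differed by 0.22, 0.068 and -0.082. A further 3 probe sets are assigned to Rab1a and Rab1b jointly and were no members.

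Rab2b and Rab2a act between the endoplasmic reticulum and the Golgi. On 1 of its 2 probe sets the Rab2b signals were 378, 434, 419, 393 and 384 in SHR 1 to 5 and 356, 359, 344, 368 and 368 in WKY 1 to 5. This was the only Rab probe set besides those of Rab8b whose strains did not overlap, 3 of 78 (3.85%) against 6.13% of all tested probe sets. The difference was small, 0.15 ± 0.059, and did not pass (adjusted p = 0.145), and the other Rab2b probe set differed by -0.074. For Rab2a the brighter probe set had 1589 ± 163.5 in SHR and 1412 ± 66.1 in WKY, differing on the log2 scale by 0.16 ± 0.068 (adjusted p = 0.173), and the dimmer one differed by -0.036.

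The other secretory members with a fixed place in the description were close to 0. Rab1a had 1779 ± 111 in SHR and 1832 ± 153 in WKY, differing on the log2 scale by -0.040 with a 95% interval of -0.18 to 0.10. Rab6a, a Rab of retrograde transport at the Golgi, had 935 ± 70.3 and 934 ± 69.1 on its brighter probe set (0.00078, interval -0.14 to 0.14) and differed by 0.081 on a second probe set. Rab10, which brings membrane to the growing axon and the glucose transporter to the surface, had 713 ± 40.9 and 718 ± 22.6 on its brighter probe set (-0.011, interval -0.13 to 0.11) and differed by 0.17 on a dimmer one. The signs of such small differences are not read, since quantile normalization turned those of Rab8a and Rab10. Without Rab8b, the 24 secretory probe sets ran from -0.14 to 0.43, 12 above and 12 below 0, and 23 of them had a 95% interval inside -0.5 to 0.5.

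The endosomal group was the largest, with 25 genes on the array and 24 tested on 40 probe sets, of which 0 passed (4.26% of all tested probe sets did). At an unadjusted p below 0.05 there were 6 of 40, against 21.0% of all. The median log2 difference was -0.019, beside 0.016 over all tested probe sets, and 21 of the 40 differences were below 0. The range ran from -0.38 to 0.29, and 32 of the 40 intervals lay inside -0.5 to 0.5.

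Rab14, which links the Golgi with early endosomes, came nearest to the threshold. On 1 of its 4 tested probe sets the signals were 183, 139.7, 164, 168 and 153 in SHR 1 to 5 and 222, 173, 184.5, 225 and 279 in WKY 1 to 5. The strains overlapped only in that SHR 1 lay above WKY 2. The log2 difference was -0.38 ± 0.11 (adjusted p = 0.0551). Without SHR 1, WKY 2 or WKY 3 it passed, at -0.42, -0.45 and -0.43 (adjusted p = 0.0482, 0.0256 and 0.0442). With any other single array left out it did not pass, at -0.29 where weakest and with an adjusted p of up to 0.147. Over the other alternatives run the difference was -0.41 to -0.16, with an adjusted p of up to 0.726. The other 3 tested Rab14 probe sets did not share the difference, at 0.11, 0.037 and -0.024, with strains overlapping on each. The least spread of these had 215 ± 14.4 in SHR and 219 ± 15.2 in WKY.

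Early endosomes are fused by Rab5, and Rab4 returns receptors from them to the surface by the fast route. Rab4b had 56.0, 76.8, 82.3, 62.5 and 81.0 in SHR 1 to 5 and 96.8, 111, 66.1, 111.5 and 108.5 in WKY 1 to 5. Only WKY 3 lay within the SHR values. The log2 difference was -0.38 ± 0.13 (adjusted p = 0.106), and without WKY 3 it was -0.50 and passed (adjusted p = 0.0194). With any other single array left out it did not pass, at -0.31 where weakest and with an adjusted p of up to 0.243. Over the other alternatives run the difference was -0.47 to -0.25, with an adjusted p of up to 0.683. Rab4a was measured at 192 ± 18.2 in SHR and 217 ± 13.6 in WKY, which differ by -0.17 ± 0.075 (adjusted p = 0.203).

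Rab5a on its brighter probe set had 492, 398, 413, 480 and 506 in SHR 1 to 5 and 492, 529, 487, 584 and 639 in WKY 1 to 5. WKY 4 and WKY 5, the arrays with the lowest median signals (39.9 and 39.6), were the highest. The log2 difference of -0.25 ± 0.085 did not pass (adjusted p = 0.110), and with the arrays' median signals added to the model it was 0.0053. Median signals tended to be higher in SHR (44.2 to 49.8) than in WKY (39.6 to 45.7). This covariate is therefore partly tied to strain, and the change cannot be assigned to signal level. The dimmer Rab5a probe set differed by -0.051. Rab5b differed by -0.12 on its brightest probe set and by 0.11, 0.20 and 0.22 on 3 dimmer ones, and Rab5c by 0.15 ± 0.14.

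The named Rabs of the slow recycling route and of the route to the lysosome did not pass either. Rab11a, of the recycling endosome, had 500.5 ± 48.0 in SHR and 547 ± 29.4 in WKY on its brighter probe set (-0.13 ± 0.069, adjusted p = 0.305) and differed by -0.071 on the other. Rab7a, which takes late endosomes to the lysosome, had 710.2 ± 53.6 and 747 ± 59.0 on its brighter probe set (-0.072, 95% interval -0.21 to 0.07). The dimmer Rab7a probe set had 191 ± 13.1 and 194 ± 11.1. Of the remaining endosomal members, Rab9a, which returns receptors from late endosomes to the Golgi, differed by 0.20 ± 0.080 and Rab35, another recycling Rab, by -0.18 ± 0.081, with unadjusted p of 0.0224 and 0.0385 and adjusted p of 0.159 and 0.208.

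The synaptic group had 8 genes on the array, of which 6 with 8 probe sets were tested, and 0 passed (0 also at an unadjusted p below 0.05). Rab3a, the main Rab of synaptic vesicles, had 653, 672, 624, 623 and 792 in SHR 1 to 5 and 731, 703, 617, 789 and 763 in WKY 1 to 5 on its brighter probe set, so the strains overlapped over almost the whole range. The log2 difference was -0.098 ± 0.076 (95% interval -0.26 to 0.06), and -0.17 ± 0.093 (adjusted p = 0.326) on the dimmer one. The related Rab3b had 421 ± 60.1 in SHR and 441 ± 60.7 in WKY (-0.064 ± 0.10), and Rab3c 36.0 ± 7.37 and 38.2 ± 7.39 (-0.062 ± 0.14).

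Rab27a and Rab27b dock secretory granules and also act in transmitter release. The tested Rab27b probe set had 71.0 ± 14.6 in SHR and 55.9 ± 16.6 in WKY. Its log2 difference of 0.29 ± 0.15 (adjusted p = 0.294) was the 1 positive value of the group. A dimmer Rab27b probe set, not tested, had 24.7 to 35.0 in SHR and 19.4 to 26.3 in WKY. Rab27a differed by -0.12 ± 0.11 and -0.10 ± 0.11 on its tested probe sets, and Rab26, a Rab of vesicle pools, by -0.049 ± 0.062. The median of the group was -0.081, and over the alternatives run it ranged from -0.11 to -0.058.

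The other 4 tested genes stand outside these groups and 0 of them passed (0 also at an unadjusted p below 0.05). Rab40c and Rab40b, which join ubiquitin ligases, differed by 0.16 ± 0.11 and -0.14 ± 0.083. Rab28, linked to cilia, differed by 0.095 ± 0.066 and Rab23, an inhibitor of Hedgehog signalling, by 0.044 ± 0.15. Over all 76 tested Rab probe sets other than those of Rab8b the median was -0.017, with 35 above and 41 below 0, and all 76 had a 95% interval inside -1 to 1. A difference as large as either tested one of Rab8b therefore lay outside the interval of each, on this log2 scale.

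The 19 Rab probe sets that were not tested were dim, and the strains overlapped on every one. Among the genes without a tested probe set, Rab3d, a Rab of secretory granules, had SHR signals of 6.76 to 47.6 and WKY signals of 6.52 to 35.1. Rab37, also of secretory granules, had 20.4 to 25.1 and 23.6 to 37.0 in the same order. Rab43, of the Golgi, had 4.26 to 27.3 and 4.52 to 8.64, Rab19 had 9.001 to 44.1 and 6.37 to 28.4, and Rab39a stayed at or below 7.07 and 5.60. The 3 probe sets of Rab17, a Rab of epithelial cells, had no signal above 31.5 on any array. The other 11 belonged to genes that also had a tested probe set.

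Several Rab genes could be read on more than 1 probe set. Of 20 such genes, 10 had the same sign on all tested probe sets and 10 had both signs. The median gap between the lowest and highest log2 difference of a gene was 0.18. The gap was 0.73 for Rab8b, the largest, but with both values far below 0, and it was 0.51 for Rab1b and 0.49 for Rab14, each of which had 1 probe set near the threshold and others closer to 0.

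**Figure D3:**
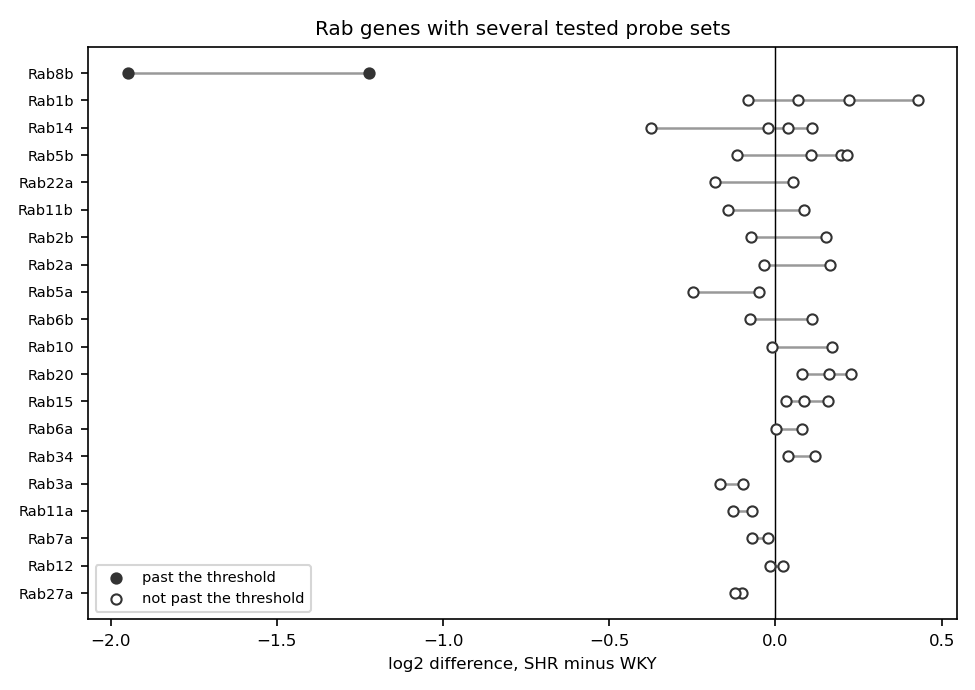
Log2 difference of SHR minus WKY (x axis) for every tested probe set of the 20 Rab genes with more than 1, 1 row a gene, with a line from the lowest to the highest value. Filled points passed the threshold. Both Rab8b points lie left of -1, while 10 genes have points on both sides of 0.

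Proteins that load, switch and read Rabs were taken from 4 lists of 142 genes, of which 105 with 140 probe sets were tested. Of these probe sets 7 passed, 3 higher and 4 lower in SHR, or 5% against 4.26% of all, with a median log2 difference of 0.0011. The 7 include a Dennd1b probe set that could be tested only through WKY, as given below. Among 5 carriers and prenylation genes 0 of 6 probe sets passed (0 also at an unadjusted p below 0.05). Among 36 exchange factor genes 2 of 50 were lower (4%, against 2.20% of all tested probe sets). Madd, an exchange factor for Rab3, had 311 ± 19.3 in SHR and 394 ± 27.6 in WKY on 1 probe set (-0.32 ± 0.066, adjusted p = 0.00809), but differed by 0.082 on its other tested probe set. Dennd1b, an exchange factor for Rab35, had 17.8 ± 5.96 and 40.1 ± 10.3 on its dimmer probe set (-0.73 ± 0.16, adjusted p = 0.0155), and differed on its brighter one by -0.22 ± 0.13, which did not pass. The dimmer Dennd1b probe set reached the brightness filter on 0 SHR and 5 WKY arrays, so it could be tested only through the strain in which it was high, and its call carries no weight as support. Its log2 difference was -1.15 and -0.35 with offsets of 1 and 64.

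Among 24 genes of GTPase-activating proteins 1 of 30 probe sets was higher and 2 were lower (10% in all, against 4.26% of all tested probe sets). For Rabgap1 the probe sets disagreed. One was higher in SHR (237 ± 17.1 against 189 ± 12.3, log2 difference 0.30 ± 0.071, adjusted p = 0.0215) and the other lower (171 ± 17.3 against 217 ± 21.1, -0.32 ± 0.083, adjusted p = 0.0379), and in each the strains did not overlap. Evi5 was lower on 1 probe set (-0.39 ± 0.10, adjusted p = 0.0395) and differed by -0.10 and 0.067 on others. Among 40 listed effector genes 2 of 54 probe sets were higher (3.7%, against 2.06% of all tested probe sets). They differed by 0.42 ± 0.11 and 0.45 ± 0.12 (adjusted p = 0.0379 and 0.0425). Both were of Mical2, which oxidises actin, and whether it binds Rabs was not examined. With 1 of the 10 arrays left out in turn, Madd passed in 10 of 10 fits and Rabgap1 in 9 where higher and 5 where lower. Evi5 passed in 4 and each Mical2 probe set in 3. Dennd1b passed in 10 as well, but the filter was kept from all 10 arrays, so these fits carry no weight for it. Both Mical2 calls also ended with quantile normalization (adjusted p = 0.054 and 0.117) and without a filter (0.0702 and 0.078). So did the Evi5 call (0.0606 with quantile normalization, 0.0733 without a filter) and the lower Rabgap1 call (0.0641 and 0.0597). The Evi5 call and the lower Rabgap1 call ended with an eBayes without trend as well (adjusted p = 0.0695 and 0.0659). With 1 array left out the count of 7 ran from 2 (without WKY 5) to 9 (without SHR 5), and it was 3 without SHR 4 and 4 without SHR 2, SHR 3, WKY 1 or WKY 4. With the arrays' median signals in the model 1 was left, the Dennd1b probe set that met the filter through WKY alone. Those medians are partly tied to strain, so this fall cannot be assigned to signal level.

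Rab8b was also set beside the genes next to it on its chromosome, in the order of the RefSeq table of GRCr8. Of the 28 tested probe sets of the 10 nearest tested genes on either side, 3 passed (10.7%, against 4.26% of all), 2 lower and 1 higher in SHR, and their median log2 difference was -0.011. The 10 genes on 1 side, from Aph1bl2 to Rbpms2, had 0. On the other side, Vps13c, which encodes a lipid transfer protein of membrane contact sites, is the fourth tested gene from Rab8b, with 16 genes of any kind in the table between them. Its single tested probe set had 4.43, 23.4, 29.1, 10.9 and 3.15 in SHR 1 to 5 and 47.3, 57.8, 34.2, 38.3 and 52.8 in WKY 1 to 5. The strains did not overlap, and the log2 difference was -1.11 ± 0.22 (adjusted p = 0.00744). The probe set reached the brightness filter on 0 SHR and 5 WKY arrays, so it could be tested only through the strain in which it was high. Its size rests on the offset, at -2.01 with 1 and -0.50 with 64. Without Vps13c, 2 of 27 neighbouring probe sets passed (7.41%), both of Tpm1.

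Between Rab8b and Vps13c lie Rps27l, Tpm1 and Tln2 among the tested genes. Rps27l, a ribosomal protein paralog, and Tln2, a talin, differed by 0.15 ± 0.11 and 0.033 ± 0.11. Tpm1, the tropomyosin gene with many isoforms, was higher in SHR on its brightest probe set (214 ± 13.8 against 154 ± 19.3, log2 difference 0.44 ± 0.085, adjusted p = 0.00582) and lower on a dim one (39.7 ± 5.55 against 65.0 ± 9.84, -0.54 ± 0.12, adjusted p = 0.0141). Its 3 other tested probe sets differed by -0.17, -0.043 and 0.014. The lower call ended without WKY 4 (adjusted p = 0.0546). It held in 18 of the 21 alternatives that could test it, with an adjusted p of up to 0.304. The tested genes directly beside Rab8b, Rps27l and Aph1bl2 (0.047 ± 0.12), thus did not pass.

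**Figure D4:**
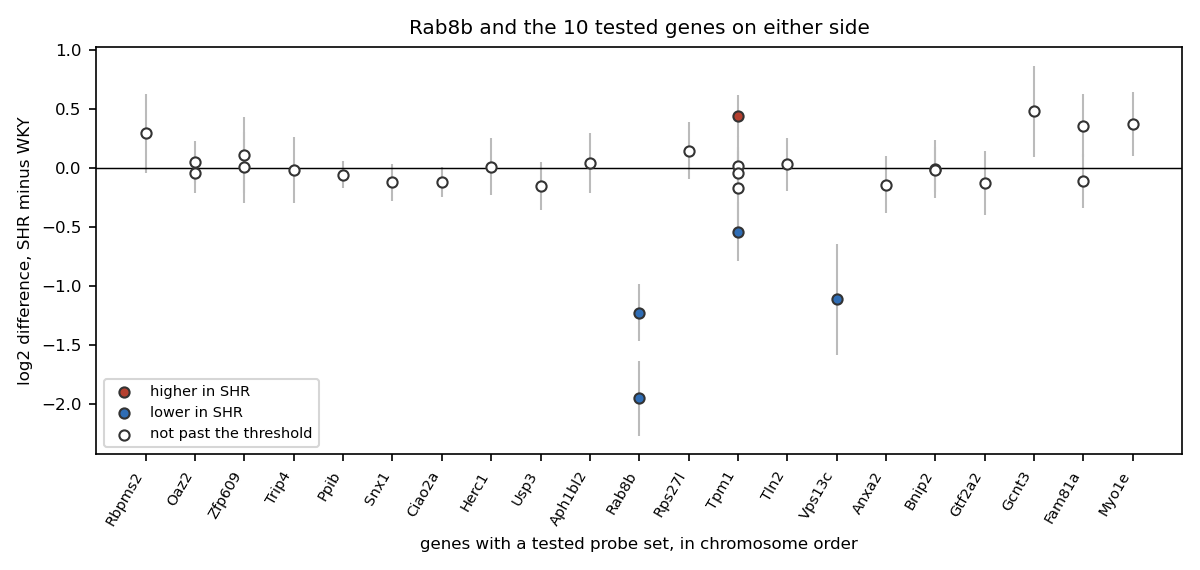
Log2 difference of SHR minus WKY (y axis) with 95% confidence intervals for Rab8b and the 10 genes with a tested probe set on either side, spaced by gene order and not by distance, 1 point a probe set. Blue points were lower and red points higher in SHR. Vps13c, at -1.11, and Rab8b lie below the other genes, and Vps13c met the brightness filter on WKY arrays alone.

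Of the whole arrays, correlations across tested probe sets were 0.947 to 0.988, and median signals were 44.2 to 49.8 in SHR and 39.6 to 45.7 in WKY. Of 12 markers of the NTS and caudal hindbrain 9 were tested, with summed signals of 5086 to 5427 in SHR and 5404 to 6231 in WKY. All 10 of their probe sets had differences below 0 (median -0.23), against 46% of all tested probe sets. Lower past the threshold were 3 of the 10, those of Hoxb3, Prlh and Tac1, against 2.20% of all. Th, Dbh and Hoxa5 did not pass (adjusted p = 0.205, 0.114 and 0.554). Microglia markers had 3 of 12 probe sets lower, those of Aif1, C1qa and C1qb, and 10 of the 12 differences were below 0. Aif1 differed by -0.52 on the probe set that passed and by 0.51 on another (adjusted p = 0.124). Microglia markers summed to 1518 to 1622 in SHR and 1814 to 2002 in WKY. Those of neurons had 1 of 14 higher (16300 to 17480 and 14800 to 16540), and of oligodendrocytes 2 of 13 lower, both of Mobp (9929 to 12140 and 9270 to 11870). Choroid plexus markers had 1 of 3 higher, against 2.06% of all tested probe sets. They summed to 146 to 205 in SHR and 107 to 289 in WKY. Those of astrocytes and endothelium had 0 of 12 and 0 of 6 by limma (2 and 2 at an unadjusted p below 0.05). List medians lay between -0.23 and 0.24. Of single markers, Mobp differed by -1.41 on 1 probe set and by -0.34 and -0.022 on the others. The part of these differences in that of Rab8b was not tested.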

How the data were processed

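Total RNA of the NTS was amplified and hybridised to 1-colour Affymetrix arrays; amplification is per the labels' protocols. In the deposited table each value is 1 linear intensity for each probe set, which the authors made with GCOS 1.2, as the submitters' processing notes name it. The sources used here give no background step or detection calls, and no batch label is given for the arrays. The 57 control probe sets were left out. No further normalization was applied. A probe set was tested if at least 5 of 10 arrays reached that array's 40th percentile (18846 of 31042). Values of log2(signal + 16) were fitted by strain with lmFit and an intensity-trended eBayes of limma 3.58.1 under R 4.3.3, and p-values were Benjamini-Hochberg adjusted over all tested probe sets, with 0.05 as the threshold. The fit was tested on simulated data. Members were picked by the symbols of the platform's annotation. Genes are named by their RefSeq symbol (GRCr8) where the Entrez identifier matched, as for all 56 Rab genes, and otherwise by the platform's. Levels of different probe sets are not compared. The number of arrays limits the precision.

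The members, groups and gene lists were chosen with earlier results of these data known. Named were Rab genes past the threshold, the 3 further genes of smallest p in each group, 13 Rab genes fixed by role, and list members and neighbours that passed. The other Rab genes named in the text, and markers that did not pass, were picked after their values were seen. Alternatives were other normalizations, offsets and filters, other variance models, array weights, a replicate block, 1 probe set a gene, leaving out arrays, and the median signal as a covariate.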

Additional observations from a re-analysis of the deposited data

Results flagged for a closer look

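Rab6a, on its brighter probe set, had 1 array apart from the others of its strain. SHR 2 had a signal of 813.1, while the other 4 SHR arrays lay between 953.5 and 995.8. The gap was 0.768 of the range of the SHR arrays, above the critical value of 0.71 for 5 samples. This was 1 of 48 groups examined, on 24 probe sets, and about 5% of groups are flagged by chance.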

How the results depend on the processing

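Both tested Rab8b probe sets stayed past the threshold under every alternative that could test them, 23 for the brighter (-2.28 to -1.37) and 22 for the dimmer (-1.51 to -0.78). The medians of all tested probe sets stayed between -0.011 and 0.046 under all alternatives. Of all tested probe sets 803 passed, against 1214 with the replicate block, 206 with the median-signal covariate, 512 without SHR 2 and SHR 3, 437 of 10668 with the brightest probe set of each gene, and 480 to 976 with 1 array left out. With 1 array left out the Rab probe sets lower in SHR numbered 2 to 4 and those higher 0 to 1. The regulators and effectors past the threshold numbered 2 to 9, against 7 with all arrays, 4 with quantile normalization, 3 without a filter, 3 with the brightest probe set of each gene, 4 without SHR 2 and SHR 3 together, and 1 with the median-signal covariate. With 1 probe set a gene 1 Rab gene was lower, since Rab8b is then counted once, and the medians were -0.045 over all Rab genes and -0.088 over the endosomal ones. The secretory median was 0.023 with quantile normalization, and the endosomal one ran from -0.030 to 0.013 with 1 array left out. The labels do not say that a replicate number marks a shared animal, litter or day, and whether it pairs the arrays is not settled. Deviations of same-numbered arrays correlated at 0.0494, 0.139, 0.134, 0.038 and 0.282, so not every pair was over 0.1, while 6 of 10 arrays correlated best with their own number in the other strain. With the replicate block 4 Rab probe sets were lower and 1 higher (Rab14, Rab5a and Rab1b besides Rab8b, adjusted p = 0.0282, 0.0402 and 0.025). Array weights added Rab4b (adjusted p = 0.0436). Signs turned with quantile normalization for Rab10 (0.031) and Rab8a (0.020), and with the covariate for Rab5a (0.0053), Rab27b (-0.021), Rab1a (0.063) and Rab3a (0.074, brighter probe set). With 1 array left out Rab6a ran from -0.039 to 0.049, Rab10 from -0.031 to 0.018, Rab8a from -0.056 to 0.015 and Rab3c from -0.14 to 0.0034. The cause of the changes above was not tested. Median signals are partly tied to strain, so changes with that covariate, among them the fall to 206, cannot be assigned to signal level.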
